A study of Mus musculus with 12 samples.

Results

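GIMAP GTPases are a family of GTP-binding proteins of lymphocytes, and the table of 14323 genes held rows for 8 of them, Gimap1, Gimap3, Gimap4, Gimap5, Gimap6, Gimap7, Gimap8 and Gimap9, chosen by symbol. RNA was sequenced from naïve CD8+ T cells, sorted by surface markers from spleens of 3 wild type mice. Cells of each mouse were cultured for 6 h in 4 conditions, which gave 12 libraries, 1 per mouse and condition. The wells were coated with 2.5 µg/ml anti-CD3ε (clone 145-2C11, which triggers the T cell receptor complex) or isotype control, the latter called unstimulated here, and a second coating antibody at 2.5 µg/ml was either the agonistic anti-LAIR-1 clone 2C7 or its isotype. LAIR-1 is an inhibitory receptor for collagens. The methods name adult animals of C57BL/6N background for the study as a whole, and no age of these 3 donors is given in the sources used here. Sorted cells are the only cells the labels name in the wells, so the cultures model antibody-triggered signalling and not a response in tissue.

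GIMAP proteins (GTPases of immunity-associated proteins, also called IANs) share a GTP-binding domain related to that of septins, assemble on intracellular membranes and are known for their part in the survival and quiescence of lymphocytes. Gimap1, Gimap3 and Gimap5 carry a hydrophobic stretch at the C terminus that anchors them in membranes. Loss of Gimap5 in rodents leads to a loss of peripheral T cells, and loss of Gimap1 impairs survival of mature T and B cells. Gimap4 has been linked to apoptosis of T cells, Gimap6 binds a GABARAP-family protein of the autophagy machinery, and Gimap8 holds repeated GTP-binding domains.

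The 8 genes lie side by side on chromosome 6, from 48647234 to 48770851 (GRCm38, the assembly also named mm10), a span of 123618 bp. All are protein coding in GENCODE M21. In order of position they are Gimap8, Gimap9, Gimap4, Gimap6, Gimap7, Gimap1, Gimap5 and Gimap3, of which 6 are on the plus strand and 2, Gimap6 and Gimap3, on the minus strand. Gimap1 (ENSMUSG00000090019, 48739054 to 48743795) and Gimap5 (ENSMUSG00000043505, 48746197 to 48754210) are the closest pair, with 2401 bp between them. A read-through gene, Gm28053, overlaps Gimap7, Gimap1 and Gimap5, and Gimap1os overlaps Gimap1 on the other strand. Neither has a row in the count table. Exons of Gm28053 cover 0 bases of the last 500 bp of each member, where libraries primed from the poly(A) tail place most reads. The last 500 nt of the 21 coding transcripts of the members gave no alignment to those of another member, and the only exact stretches of 60 nt (the read length) shared by members were 129 in Gimap3 and Gimap5, at least 780 nt from the 3′ end of Gimap3 and 952 nt from that of Gimap5.

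The 250 bases before the RefSeq start site of 4 members are shown because Gimap5 and its neighbour Gimap1 went opposite ways with anti-CD3 in isotype cultures while Gimap4 and Gimap9 fell furthest there. Sequences are from RefSeq promoters of GRCm38.p6, and capitals mark matches to any of 8 motifs searched on both strands.
Gimap1 (chr6:48738797-48739046, plus strand): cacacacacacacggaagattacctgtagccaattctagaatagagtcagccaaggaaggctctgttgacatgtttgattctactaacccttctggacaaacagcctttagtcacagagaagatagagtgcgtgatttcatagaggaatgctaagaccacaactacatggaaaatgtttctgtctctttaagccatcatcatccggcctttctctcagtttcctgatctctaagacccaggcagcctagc
Gimap4 (chr6:48684328-48684577, plus strand): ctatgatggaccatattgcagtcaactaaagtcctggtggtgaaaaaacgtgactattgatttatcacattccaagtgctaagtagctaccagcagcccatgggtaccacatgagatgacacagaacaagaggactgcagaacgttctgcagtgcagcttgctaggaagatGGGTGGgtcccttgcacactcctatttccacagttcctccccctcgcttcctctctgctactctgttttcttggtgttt
Gimap5 (chr6:48745947-48746196, plus strand): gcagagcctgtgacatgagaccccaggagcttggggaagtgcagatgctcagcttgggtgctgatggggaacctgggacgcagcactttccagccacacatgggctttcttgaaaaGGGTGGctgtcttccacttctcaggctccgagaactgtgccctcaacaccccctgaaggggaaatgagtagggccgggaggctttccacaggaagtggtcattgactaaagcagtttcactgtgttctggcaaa
Gimap9 (chr6:48675885-48676134, plus strand): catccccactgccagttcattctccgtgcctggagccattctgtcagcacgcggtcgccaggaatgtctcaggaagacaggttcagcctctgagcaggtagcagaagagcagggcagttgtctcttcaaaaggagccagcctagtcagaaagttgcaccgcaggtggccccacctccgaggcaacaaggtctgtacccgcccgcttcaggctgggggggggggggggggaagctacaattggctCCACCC

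The motifs were the letters CCACCC, known to be bound by zinc finger factors of the KLF family, GTAAACA, known for forkhead factors such as Foxo1, and TGTGGTT, known for the Runx factors. The others were CCGGAAG, known for Ets factors, CTTTGAT, known for the factors Tcf7 and Lef1, AGATAAG, known for Gata factors, TGAGTCA, known for the Fos and Jun factors, and TATAAA, the letters found in many core promoters. Matches of different motifs do not overlap in the sequences shown. RefSeq lists 9 promoters for the members, with 2 for Gimap8, each searched over 300 bases that run 50 past the start site. CCACCC occurred in 5 of the 9, those of Gimap3, Gimap4, Gimap5, Gimap9 and 1 of Gimap8, against 31.5% of all 32851 promoters. The match began 79 bases before the start site in Gimap4, 134 before it in Gimap5 and 6 before it in Gimap9. GTAAACA occurred in Gimap3 alone (3.65% of all promoters) and TATAAA in Gimap6 alone (13.6% of all promoters), while the other 5 motifs, found in between 3.04% and 8.86% of all promoters, occurred in none of the 9. Thus Gimap5 and the falling members Gimap4 and Gimap9 all held CCACCC, and Gimap1 held no motif of the 8.

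Library totals ranged from 1781218 to 7725545 counts, and between 1889 and 5134 of these fell on GIMAP genes. Libraries with anti-CD3 were deeper (group medians 4883760 with isotype and 6204054 with anti-LAIR-1, against 2304214 and 3548881 unstimulated) and had a lower share of mitochondrial counts, between 11.46% and 13.17% against between 17.65% and 20.87%. All 10 T cell and CD8 markers were detected in each group. Levels are given as CPM, counts scaled to library size with TMM factors. The lists of CD4 (4 genes measured), B cell (6), myeloid (7) and erythroid and platelet markers (2) summed to at most 11.3, 9.71, 5.39 and 3.45 CPM in a library. The last 2 are the platelet genes Pf4 and Ppbp. The listed haemoglobin genes have no row, so red cell RNA was not measured. Lyz2 of the myeloid list and Pax5 of the B cell list have no row either. The NK list summed to between 68.5 and 82.1 CPM unstimulated, between 210 and 220 CPM with anti-CD3 and isotype and between 132 and 149 CPM with anti-CD3 and anti-LAIR-1, through Nkg7 and Eomes, which CD8+ T cells also make. The endothelial list went from between 109 and 161 CPM unstimulated to between 8.36 and 23.1 CPM with anti-CD3, through Pecam1, which naïve T cells also make. The parts of the NK and endothelial lists in the results were not tested. All 8 members passed the filter on low counts in every comparison.

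As a part of the RNA counted in a library, 7 GIMAP genes were lower with anti-CD3 and Gimap5 was higher. Relative to unstimulated cells with isotype, Gimap4, Gimap8 and Gimap9 were between 2.95-fold and 3.71-fold lower, Gimap3 and Gimap7 were 2.23-fold and 2.65-fold lower, Gimap6 and Gimap1 were 1.76-fold and 1.43-fold lower, and Gimap5 was 1.77-fold higher. The question was how receptor triggering alone changed the family, and p-values come from edgeR (quasi-likelihood), adjusted by Benjamini-Hochberg over the 8690 genes tested. All 8 members passed at 0.05, in a comparison in which 71.3% of all tested genes passed (35.3% higher and 36.1% lower), so that passing by itself was common. Their median log2 fold change was -1.28, against -0.03 for all tested genes. 5 members fell by more than 2-fold, which 23.5% of all tested genes did.

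**Figure D1:**
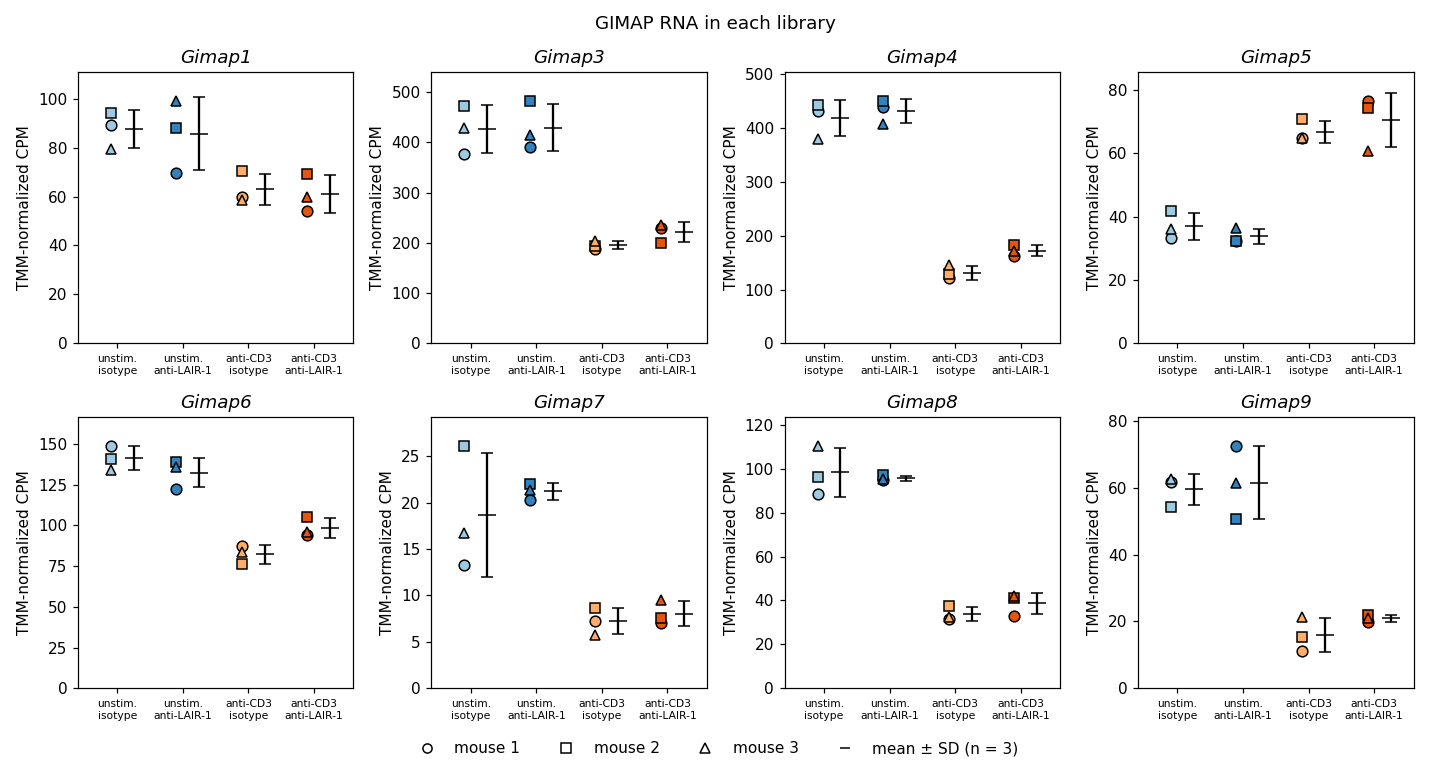
Level of each GIMAP gene in TMM-normalized CPM (y axis, from 0 and scaled per gene) in the 4 conditions (x axis). Symbols are mice 1 to 3 and black marks the mean ± SD (n = 3). The 6 libraries with anti-CD3 lie below the 6 unstimulated libraries for 6 genes and above them for Gimap5. For Gimap1, the highest stimulated library (70.4 CPM, isotype) passes the lowest unstimulated one (69.6 CPM, anti-LAIR-1).

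Among the membrane-anchored members, Gimap5 stood at 33.1, 41.6 and 36.1 CPM in unstimulated isotype cultures of mice 1, 2 and 3, and at 64.7, 70.8 and 64.7 CPM with anti-CD3 and isotype. Every stimulated library was above every unstimulated one, in a comparison in which 73.5% of all tested genes had groups that did not overlap. The log2 fold change of Gimap5 was 0.82 (SE 0.14, edgeR adjusted p = 1.34e-05), higher in 3 of 3 mice, and 75.4% of tested genes had a lower fold change. Gimap1 moved the other way, from 89.0, 94.3 and 79.3 CPM to 59.9, 70.4 and 58.4 CPM. This was the smallest change in the family, -0.52 (SE 0.12, edgeR adjusted p = 7.13e-04), although the groups did not overlap. Gimap3 went from 377, 473 and 429 CPM to 188, 195 and 204 CPM, a log2 fold change of -1.16 (SE 0.10, edgeR adjusted p = 2.54e-10). The 3 stimulated libraries were close to each other, with an SD of 7.81 CPM around a mean of 195.5.

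Among the members without that anchor, Gimap4 went from 432, 443 and 380 CPM to 121, 128 and 146 CPM. Its log2 fold change was -1.70 (SE 0.10, edgeR adjusted p = 4.71e-13), and no other member had a smaller p. Gimap9 showed the largest fall, from 61.9, 54.3 and 62.6 CPM to 11.2, 15.3 and 21.2 CPM. Mouse 3 kept the most Gimap9 after stimulation, and the log2 fold change was -1.89 (SE 0.18, edgeR adjusted p = 3.16e-09), with 11.8% of tested genes lower still. Gimap8 dropped from 88.4, 96.3 and 111 CPM to 31.7, 37.5 and 32.5 CPM, a log2 fold change of -1.56 (SE 0.13, edgeR adjusted p = 2.7e-10). Gimap6 fell less, from 149, 141 and 134 CPM to 87.7, 76.1 and 83.5 CPM, a log2 fold change of -0.82 (SE 0.11, edgeR adjusted p = 4.84e-07). Gimap7 rested on the fewest reads, between 24 and 64 counts a library in these groups, and went from 13.2, 26.1 and 16.7 CPM to 7.26, 8.69 and 5.79 CPM. Its unstimulated libraries were the most spread, with an SD of 6.67 around 18.7 CPM, and its log2 fold change of -1.41 had the widest error (SE 0.28, edgeR adjusted p = 1.04e-04). The groups did not overlap for any of the 8 members, as was so for 73.5% of all tested genes.

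In the presence of anti-LAIR-1, anti-CD3 changed the family in the same directions. All 8 members passed the test again, 7 lower and Gimap5 higher, where 72.7% of 9000 tested genes passed (36.4% higher and 36.3% lower), and their median log2 fold change was -1.14 against -0.04 for all genes. This comparison shares no library with the previous one, but both came from the same 3 mice. Gimap5 went from 32.4, 32.4 and 36.4 CPM to 76.5, 74.2 and 60.8 CPM, a log2 fold change of 1.06 (SE 0.12, edgeR adjusted p = 2.99e-07), lowest in mouse 3. Gimap4 went from 439, 450 and 407 CPM to 162, 183 and 172 CPM, a log2 fold change of -1.34 (SE 0.08, edgeR adjusted p = 1.32e-11). Gimap9 again fell furthest, from 72.6, 50.7 and 61.6 CPM to 19.8, 21.8 and 21.2 CPM (log2 fold change -1.56, SE 0.14). The log2 fold changes of Gimap8, Gimap7 and Gimap3 were -1.32, -1.42 and -0.96, and those of Gimap1 and Gimap6 -0.50 and -0.44. No group pair overlapped for any member, as for 74.8% of all tested genes.

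**Figure D2:**
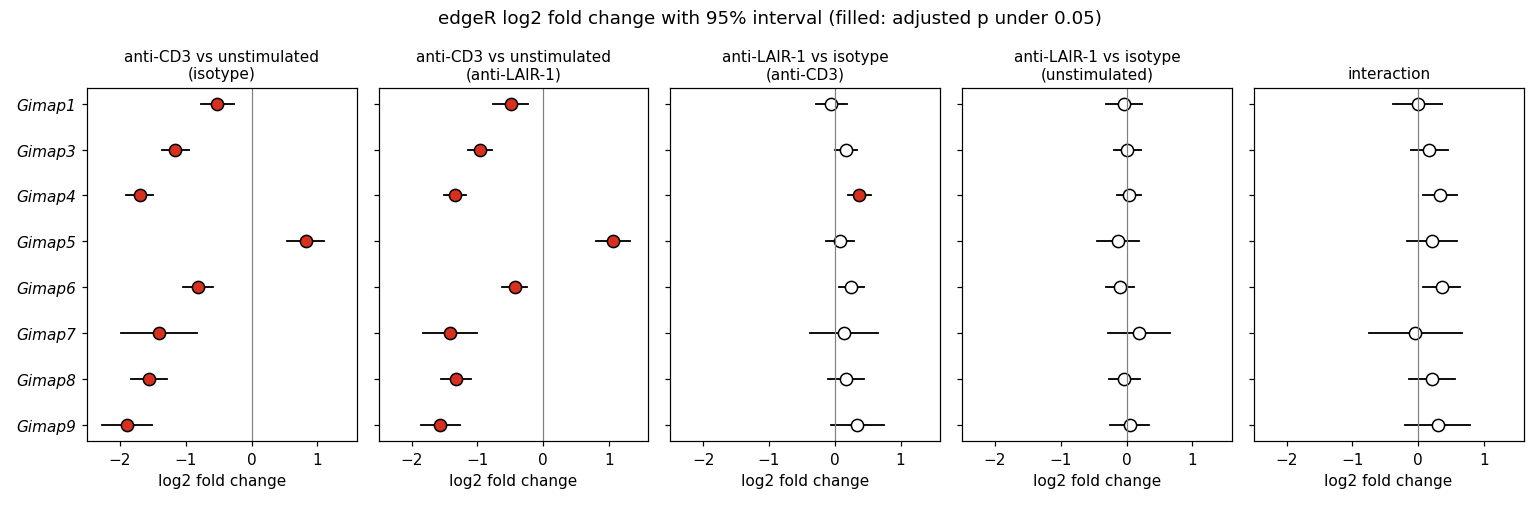
Log2 fold change (x axis) of each GIMAP gene (y axis) in the 5 comparisons, the last being the difference between the anti-LAIR-1 effects with and without anti-CD3. Points are edgeR estimates, lines 95% intervals, and filled points have an adjusted p under 0.05. All points are filled in the 2 anti-CD3 panels, Gimap4 alone in the third, and none in the last 2.

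Summed over the 8 genes, GIMAP RNA was lower with anti-CD3 in every mouse and with either antibody. The sum was 1287 ± 71.5 CPM (SD, n = 3) unstimulated with isotype and 1292 ± 62.4 CPM with anti-LAIR-1, against 596 ± 22.8 CPM with anti-CD3 and isotype and 692 ± 14.1 CPM with anti-CD3 and anti-LAIR-1. As a share of all deposited counts, which scales to the library total without TMM factors, the sum was between 0.1264% and 0.1456% in unstimulated libraries. In stimulated libraries it was between 0.05431% and 0.06728%. CPM and shares are relative to the RNA counted in a library, so RNA per cell was not measured. Before any scaling, counts on the 8 genes ran from 2315 to 5134 in unstimulated libraries and from 1889 to 5010 in stimulated ones. In bulk RNA, fewer cells of a type and less RNA per cell cannot be told apart. Beside this relative fall, 8 of the 10 T cell and CD8 markers were lower too, 1 was higher and 1 was not called (isotype comparison). Of all tested genes, 36.1% were lower and 35.3% higher there. The summed level of the 10 markers went from between 4475 and 4942 CPM to between 2757 and 2874 CPM. The parts of this shift and of the lower mitochondrial share in the GIMAP changes were not tested. With every library thinned to the smallest total, all 8 members passed in the same directions.

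Because members moved by different amounts, the make-up of GIMAP counts changed. Gimap5 made up 2.66%, 3.04% and 2.89% of GIMAP counts in unstimulated isotype libraries and 11.3%, 11.8% and 10.5% with anti-CD3. With anti-LAIR-1 its share went from 2.61%, 2.38% and 2.86% to 11.3%, 10.6% and 8.72%. Such shares compare conditions and not the abundance of different genes, since how much of each gene's RNA ends up as placed reads was not measured. For each Gimap4 count there were between 0.0719 and 0.0950 Gimap5 counts in the 6 unstimulated libraries and between 0.354 and 0.551 in the 6 stimulated ones. The ratio is taken within a library, so no scaling factor enters it, and the stimulated and unstimulated ranges did not overlap.

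**Figure D3:**
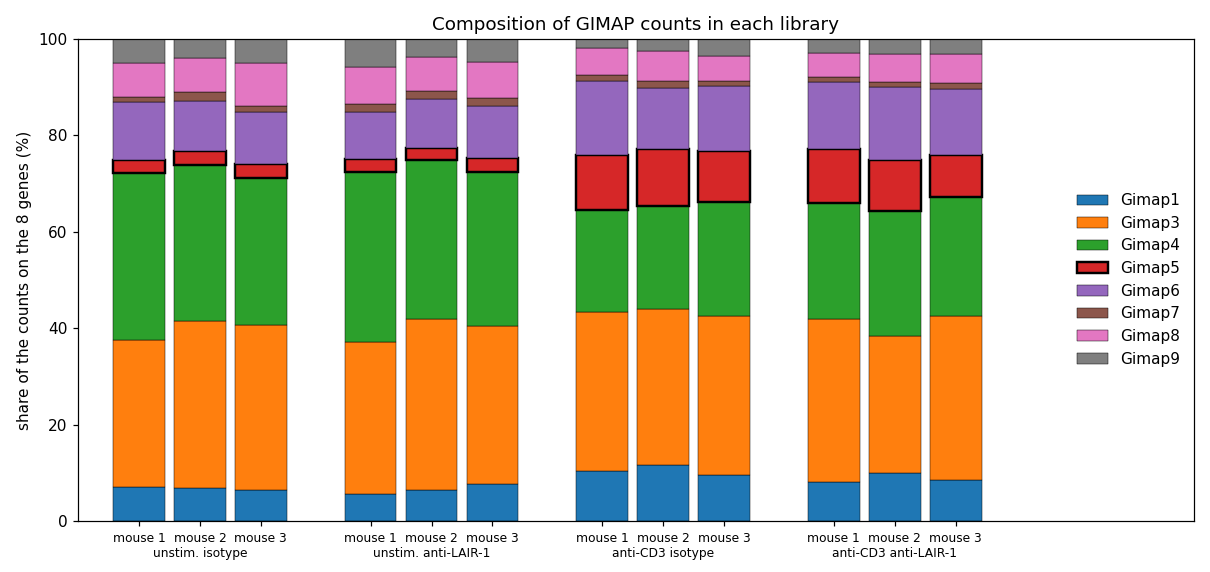
Share of each GIMAP gene (y axis, percent) among the counts on the 8 genes, 1 bar per library, grouped by condition (x axis). The outlined Gimap5 segment is between 2.38% and 3.04% in the unstimulated libraries and between 8.72% and 11.8% with anti-CD3.

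Along the cluster, the first 3 genes, Gimap8, Gimap9 and Gimap4, had the 3 lowest log2 fold changes with isotype. The adjacent Gimap1 and Gimap5 had the highest 2 there, 1 negative and 1 positive, and Gimap3, beyond Gimap5, was at -1.16. With anti-LAIR-1 this order did not hold. The 3 lowest were then Gimap9 (-1.56), Gimap7 (-1.42) and Gimap4 (-1.34), and Gimap6 (-0.44) was above Gimap1 (-0.50). Of the 10 nearest measured genes on each side, which reach up to 1339390 bp away, 10 of 20 were tested with isotype. Among these 10, 2 were higher and 4 lower, where 35.3% and 36.1% of all tested genes were. Those with the smallest adjusted p were Mpp6 (log2 fold change 2.82), Tra2a (1.02), Krba1 (-1.66) and Lrrc61 (-1.33), and the median of the 10 was -0.63. With anti-LAIR-1, 2 of 11 tested neighbours were higher and 5 lower, where 36.4% and 36.3% of all tested genes were.

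**Figure D4:**
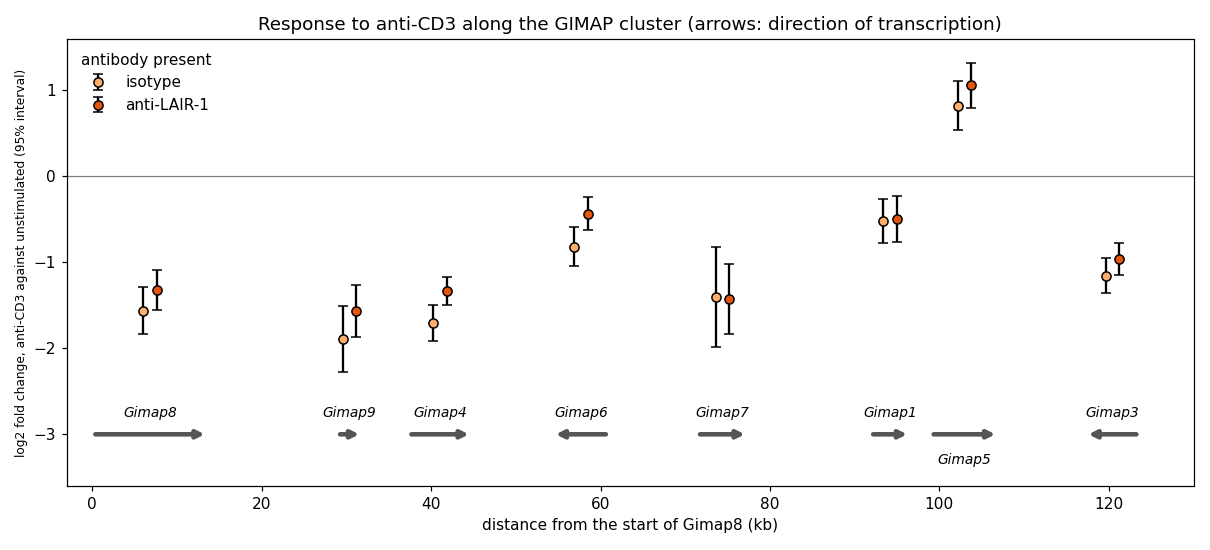
Log2 fold change of anti-CD3 against unstimulated (y axis, with 95% interval) at each gene's position in the cluster (x axis, kb from the start of Gimap8), with isotype or anti-LAIR-1 present. Arrows at the bottom show each gene's extent and direction of transcription. Gimap5 alone lies above 0, at 0.82 and 1.06, next to Gimap1 at -0.52 and -0.50.

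Gimap4 RNA was higher when LAIR-1 was triggered during stimulation. With anti-CD3, Gimap4 was at 121, 128 and 146 CPM with isotype and at 162, 183 and 172 CPM with anti-LAIR-1. Every anti-LAIR-1 library was above every isotype library, and 24.0% of all tested genes had groups that did not overlap in either direction. The difference was larger in mice 1 and 2 (0.42 and 0.51 on the log2 scale) than in mouse 3 (0.23). The log2 fold change was 0.37 (SE 0.09, 95% interval 0.19 to 0.55, edgeR adjusted p = 0.0141), and Gimap4 was the only member of the 8 that passed. Of 8800 tested genes, 507 passed (5.76%), 3.90% higher and 1.86% lower. DESeq2 with the mouse as a block called 224 genes, and edgeR called 293 without isotype mouse 2, 315 without anti-LAIR-1 mouse 2, 334 without anti-LAIR-1 mouse 3 and 291 in thinned libraries. The call of Gimap4 was lost without isotype mouse 1 (log2 fold change 0.32, edgeR adjusted p = 0.0728), without isotype mouse 2 (0.35, adjusted p = 0.0626) and without anti-LAIR-1 mouse 2 (0.32, adjusted p = 0.0882), and held in the other 14 alternatives. This comparison shares its libraries with those above: the level with anti-LAIR-1 remained below all unstimulated values.

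The other members did not pass. Gimap6 was at 87.7, 76.1 and 83.5 CPM with isotype and at 94.0, 105 and 95.8 CPM with anti-LAIR-1, groups that did not overlap, as for 24.0% of all tested genes. Its log2 fold change was 0.25 (95% interval 0.06 to 0.44, edgeR adjusted p = 0.128). Gimap9 had a similar value to Gimap4, 0.34, but a wider interval from -0.06 to 0.74 (edgeR adjusted p = 0.343), and its difference was 0.80 and 0.50 in mice 1 and 2 and -0.0028 in mouse 3. Gimap3, Gimap8 and Gimap7 had values of 0.17, 0.17 and 0.14. Gimap5, at 64.7, 70.8 and 64.7 CPM with isotype and 76.5, 74.2 and 60.8 CPM with anti-LAIR-1, gave 0.08 with an interval from -0.14 to 0.30. Gimap1 gave -0.05, from -0.29 to 0.19. The median of the 8 was 0.17 against 0.00 for all tested genes. The T cell markers moved alongside, with 5 of 10 higher and 0 lower, where 3.90% and 1.86% of all tested genes were. Their summed level was between 3379 and 3815 CPM against between 2757 and 2874 CPM. The part of these markers in the Gimap4 difference was not tested.

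Without anti-CD3, anti-LAIR-1 gave no detectable difference in any member. The log2 fold changes ran from -0.13 (Gimap5, 95% interval -0.46 to 0.20) to 0.19 (Gimap7, -0.28 to 0.66), the groups overlapped for all 8 (9.66% of all tested genes had groups that did not), and every edgeR adjusted p was 0.997. No gene passed in edgeR among 8770 tested (0%), where 384 had an unadjusted p under 0.05, none of them a member, and DESeq2 called 0. For Gimap4 the interval ran from -0.14 to 0.23.

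The difference between the 2 anti-LAIR-1 effects, tested as an interaction over the 12 libraries, passed for 0 of 8 members in edgeR, for 0 in DESeq2 and for 191 of 9223 genes (2.07%). That count was 118 without unstimulated isotype mouse 2, 125 and 121 without unstimulated anti-LAIR-1 mouse 1 or 3, 125 and 110 without stimulated isotype mouse 1 or 2, 103 without stimulated anti-LAIR-1 mouse 3 and 100 when thinned, with 0 members in each. The difference was 0.34 for Gimap4 (SE 0.13, unadjusted p = 0.0137, edgeR adjusted p = 0.226) and 0.36 for Gimap6 (SE 0.14, unadjusted p = 0.016, edgeR adjusted p = 0.246), the 2 members with an unadjusted p under 0.05, which 12.2% of all tested genes had. An effect of anti-LAIR-1 on Gimap4 that depended on stimulation was therefore not shown. In order of level, each of the 7 falling genes had both unstimulated groups on top, which did not differ beyond their spread, and both stimulated groups below. The latter pair was separated by the test for Gimap4 alone. For Gimap5 the order was turned, with the stimulated pair on top and no difference past the test within either pair.

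Other genes of these pathways put the GIMAP values in context. Over all tested genes, 35.3% were higher and 36.1% lower with anti-CD3 and isotype. With anti-LAIR-1 during stimulation, 3.90% were higher and 1.86% lower. Of 20 naïve T cell and quiescence genes, 16 were lower and 3 higher with anti-CD3 and isotype, and the list's median log2 fold change was -2.33. Il7r, the receptor chain for the survival cytokine IL-7, went from 327 ± 51.9 to 5.48 ± 0.43 CPM (SD, n = 3), a log2 fold change of -5.95 (edgeR adjusted p = 5.44e-19). The list ran from -5.95 (Il7r) to 0.85. The log2 fold changes of all 8 GIMAP genes lie in that range, which is too wide to mark likeness. With anti-LAIR-1 during stimulation, 8 of the 20 were higher and 0 lower, with S1pr1, the receptor for exit from lymph nodes, at 1.97 and the transcription factor Klf2 at 1.02. Of 18 tested early activation genes, 15 were higher and 2 lower with anti-CD3 (median 3.81). Tnfrsf9, the costimulatory receptor 4-1BB, went from 34.0 ± 4.71 to 1314 ± 27.3 CPM, and anti-LAIR-1 lowered 6 of the 18, among them Il2ra (-0.49), a chain of the IL-2 receptor.

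Proteins reported to bind GIMAPs, and their relatives, went both ways with anti-CD3 and isotype. Of 17, 3 were higher and 7 lower, with a median of -0.09. Of all tested genes, 35.3% were higher and 36.1% lower there, with a median of -0.03. Bcl2l1, which encodes the survival protein Bcl-xL, went from 5.94 ± 1.79 to 72.8 ± 7.43 CPM (log2 fold change 3.53, edgeR adjusted p = 2.65e-13) and the apoptosis effector Bax from 25.6 ± 8.76 to 60.1 ± 4.56 CPM (1.24, adjusted p = 1.47e-06). The autophagy proteins Map1lc3b and Gabarap fell by 1.29 and 0.74 on the log2 scale. With anti-LAIR-1 during stimulation Bcl2l1 alone of the 17 passed, lower by 1.83-fold (edgeR adjusted p = 6.21e-05). Of the other GTPase families, 3 of 6 tested septins were higher and 3 lower with anti-CD3 and isotype, Sept11 at 2.82 and Sept6 at -0.59. Of 12 tested interferon-inducible GTPases 6 were higher and 2 lower, Gbp2 at 1.64 and Gbp8 at -1.07. In the comparison of anti-LAIR-1 with isotype during stimulation, 1 septin was higher and 1 lower, and 3 interferon-inducible GTPases were higher and 1 lower. Of all tested genes, 3.90% were higher and 1.86% lower in that comparison. None of these lists had a call in the unstimulated comparison of anti-LAIR-1 with isotype, in which 0 of all 8770 tested genes passed.

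**Figure D5:**
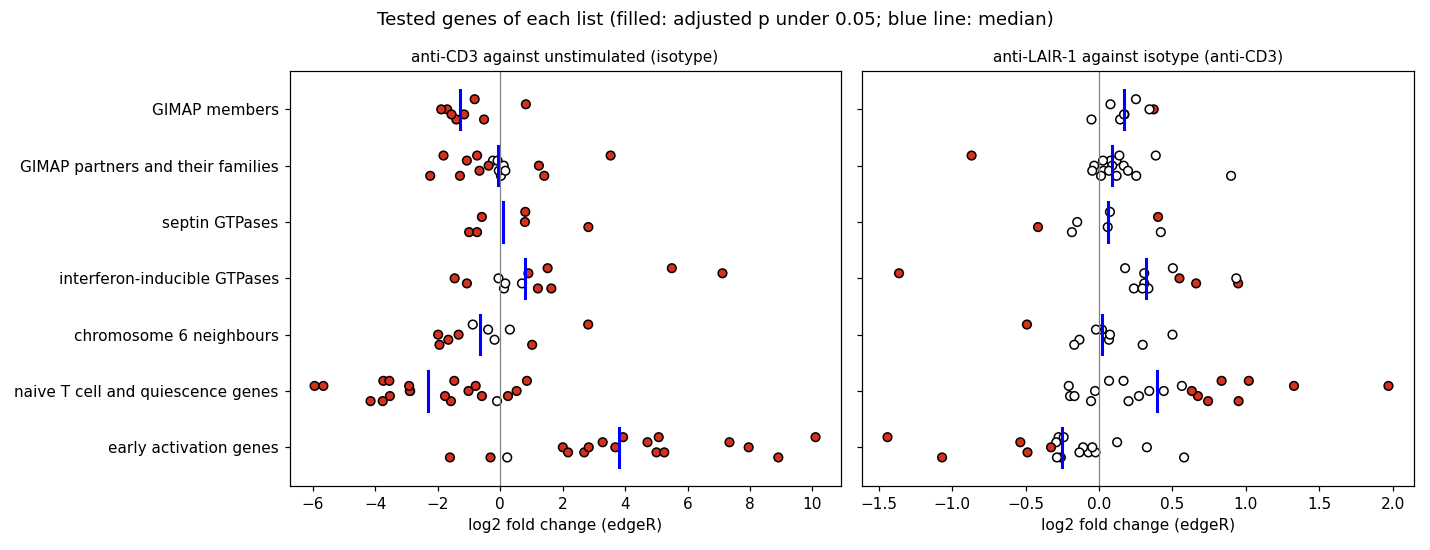
Log2 fold change (x axis) of every tested gene of the GIMAP family and 6 other gene lists (y axis), with anti-CD3 (left) and with anti-LAIR-1 during stimulation (right). Filled points have an edgeR adjusted p under 0.05 and the blue line is the list's median. The GIMAP median is -1.28 on the left, between the -2.33 of naïve T cell genes and the 3.81 of early activation genes, and 0.17 on the right.

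The genes whose profile over the 12 libraries was most like the mean of the 8 members were Birc3, Arl2bp, Peli1, Edem1 and 4930453N24Rik. Likeness was the root-mean-square difference of centred log2 CPM, which was between 0.0662 and 0.0860 for these 5 among 9215 genes compared. Birc3 stood at 53.8 ± 2.38, 51.8 ± 2.88, 26.8 ± 1.14 and 30.5 ± 2.24 CPM (SD, n = 3) in the order unstimulated with isotype, unstimulated with anti-LAIR-1, stimulated with isotype and stimulated with anti-LAIR-1. Of the members themselves, Gimap3 was nearest to their mean (0.122) and Gimap5 farthest from it (0.926).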

How the data were processed

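Libraries were made by a CEL-seq protocol and sequenced on a NextSeq 500. The authors used BWA MEM (version not given in the sources used here) to place the transcript read on mm10 transcripts, without reads that had several equally good matches. The authors deposited raw counts per gene symbol, which are not normalized. Whether molecular identifiers were collapsed is not stated, so a count may not stand for a single molecule. The SEs come from edgeR fits, which estimate the spread between libraries. A level of 3 counts is between 0.388 and 1.68 CPM. Discarding reads with several equally good matches removes those from the stretches that Gimap3 and Gimap5 share.

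The 4 conditions and mouse numbers were taken from sample titles. Counts were tested with edgeR 4.0.16 in R 4.3.3 (TMM factors, filterByExpr, quasi-likelihood test, Benjamini-Hochberg over all genes tested, threshold 0.05), with only the groups compared in each fit. The interaction used all 12 libraries. The methods of the study used DESeq2 and state no block for the mouse, so DESeq2 1.42.0 and the block were alternatives, beside other scaling factors, filters, thinning, a joint fit and each library left out. A fit without mitochondrial genes and Rn45s was added after the data were seen. Each mouse gave a library to every condition, so the numbers pair libraries. Deviations from group means correlated at 0.0432 on average within a mouse and at -0.0216 between mice. Centring on means of 3 libraries ties the second value to the first, so the 2 are not independent. No libraries of a group agreed within sampling noise (chi-square per degree of freedom 3.82 to 5.62). An exact two-sided permutation test of 3 against 3 cannot go below 0.1. Log2 CPM of single libraries used a prior count of 2. Scripts were tested on simulated data. Figures were drawn with matplotlib 3.10.9.

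All 8 members are named, other genes by up to 4 of each list with the smallest adjusted p and, for profiles, the 5 nearest to the members' mean. The members and lists were chosen with earlier results of these data known. Protein sequences were not used here.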

Additional observations from a re-analysis of the deposited data

How the results depend on the processing

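All 8 members kept their direction and their call with anti-CD3, with either antibody, under all 17 alternatives (highest adjusted p 0.0249, Gimap1). Upper quartile factors moved the median log2 fold change of all genes with anti-CD3 to -0.20 (isotype) and -0.24 (anti-LAIR-1), and library totals alone to -0.12 and -0.15. With upper quartile factors 2637 genes were higher and 3616 lower with isotype, in place of 3065 and 3134, and 2699 and 3956 with anti-LAIR-1, in place of 3276 and 3265. The members' medians moved alike, to between -1.25 and -1.46. With the mouse as a replicate block in edgeR, no member's call changed, and 549 genes in place of 507 passed for anti-LAIR-1 with anti-CD3. There, 224 genes passed with the block in DESeq2, and 291 when libraries were thinned to the smallest total. Thinning left 100 of 191 genes for the interaction. With no filter on low counts, 5 genes in place of 0 passed for anti-LAIR-1 without anti-CD3. Leaving out 1 library gave between 0 and 1 members and between 293 and 427 genes for anti-LAIR-1 with anti-CD3, between 0 and 1 genes without anti-CD3, and between 103 and 186 for the interaction. Fewer libraries or counts enter the thinned and left-out fits. The causes of the other differences were not tested.

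Uncalled values near 0 changed sign. Gimap1 turned to 0.0246 when thinned (anti-LAIR-1 with anti-CD3) and, in the interaction, to 0.0065 with the replicate block in edgeR, 0.0036 with it in DESeq2 and 0.0419 when thinned. With 1 library left out, anti-LAIR-1 with anti-CD3 gave from -0.158 to 0.0368 for Gimap1 and from -0.0332 to 0.308 for Gimap7. Without anti-CD3 it gave from -0.161 to 0.0903 for Gimap1, -0.0793 to 0.0943 for Gimap3, -0.0196 to 0.085 for Gimap4, -0.0374 to 0.525 for Gimap7, -0.107 to 0.0519 for Gimap8 and -0.0864 to 0.171 for Gimap9. The interaction ran from -0.136 to 0.11 for Gimap1 and from -0.381 to 0.184 for Gimap7.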

Other observations

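Gimap5 was compared with all genes in the same way as the members' mean, a comparison added after its values were seen. The 5 genes with the nearest profile over the 12 libraries were Hnrnpk, Minos1, Ctage5, Junb and Hnrpdl (root-mean-square difference of centred log2 CPM between 0.0988 and 0.116 among 9222 genes). Hnrnpk, an RNA-binding protein, stood at 144 ± 5.36 and 137 ± 4.24 CPM (SD, n = 3) in unstimulated cultures with isotype and anti-LAIR-1, and at 254 ± 23.5 and 263 ± 27.9 CPM with anti-CD3.

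With Gimap5 left out, the nearest genes to the mean of the other members were Ctdnep1, Tap1, Pot1a, Fam134b and Fth1. Tap1, a subunit of the peptide transporter for MHC class I, stood at 156 ± 11.2 and 169 ± 6.16 CPM unstimulated and at 72.0 ± 5.49 and 87.8 ± 3.76 CPM with anti-CD3.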
